A study of Mus musculus with 6 samples.

Results

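Genes of the lysosomal hydrolases, of the proton pump that acidifies the lysosome and of the transcription factors that control them were followed in mouse macrophages derived from bone marrow (BMDMs) with M-CSF, the macrophage growth factor. The 42 genes were listed by name and all 42 were found by symbol among the 24752 genes of the deposited table. They comprise 8 cysteine peptidases (7 cysteine cathepsins and legumain), 2 other peptidases, 5 glycosidases, 4 genes of lipid hydrolysis, saposins and progranulin, 4 lysosomal membrane proteins, the 3 factors Tfeb, Tfe3 and Mitf, 6 subunits of the membrane-embedded V0 sector and 8 of the cytosolic V1 sector of the vacuolar-type H+-ATPase (V-ATPase), and its 2 accessory proteins.

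RNA from 6 libraries was sequenced, 2 in each of 3 groups, and the libraries of a group are named B and C as in the labels. Bone marrow came from mice of 8 to 10 weeks, was differentiated for 7 days and was kept in 10 ng/ml M-CSF. The group called control received no LPS according to its label. The group called LPS received 100 ng/ml lipopolysaccharide (LPS, from the outer membrane of bacteria, which Toll-like receptor 4 detects) for 3 h, and the group called Glul_LPS is labelled as overexpressing Glul, the glutamine synthetase gene, and received the same LPS. A lentiviral vector, a control or one that overexpresses Glul, was applied for 36 h beforehand, per the labels' protocols. Which vector the control and LPS libraries carried is not given in the labels, the mouse strain and sex are not given, and no group had Glul without LPS. The labels do not state separate mice or cultures for the libraries of a group, and p-values therefore rest on a spread that may be technical.

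Library totals recovered from the table were 15649764 to 18691669 fragments, and replicates correlated at 0.9935 to 0.9943 across genes (log2 values), although genes are not independent replicates. These totals are the ones that scale the values. In each library the fragments recovered per gene summed to more, such as 2.0648e+07 against 18691669 in control B, and the reason was not tested. Values are FPKM, fragments scaled by gene length and library total, so levels of different genes are compared per length. Glul was at 140 FPKM in each control library, 30.6 and 33.4 in LPS and 37.2 and 37.7 in the libraries labelled Glul_LPS, where its difference from LPS was 0.22 on the log2 scale (limma adjusted p = 0.122). The libraries labelled as overexpressing Glul thus lay far below control and close to LPS in Glul itself, and "Glul_LPS" below means the libraries labelled so. The macrophage markers Csf1r (292 to 681 FPKM), Adgre1 (449 to 667) and Lyz2 (13175 to 18480) were high in all 6 libraries, and Csf1r was at 676 to 681 FPKM in control and 292 to 367 in the libraries with LPS. Of the osteoclast markers, Calcr was at most 0.0490 FPKM, Oscar at most 0.104 and Ocstamp at most 0.252. Other osteoclast markers were higher, with Nfatc1 at 3.24 to 8.72 FPKM, Dcstamp at 1.35 to 3.3, Itgb3 at 1.39 to 3.23 and Mmp9 at 0.386 to 1.37. The defining markers of lymphocytes, Cd3e, Cd3g, Cd79a and Ms4a1, were at most 0.184 FPKM. Of 8 neutrophil markers, Ly6g, Elane, Mpo, Camp and Ltf were at most 0.309 FPKM, S100a8 and S100a9 were at most 7.37, and Csf3r was at 44.6 to 63.7. Among mast cell and basophil markers Fcer1a was at 0 in all libraries and Hdc went from at most 0.218 FPKM in control to 5.83 to 6.77 FPKM with LPS, and among stromal markers Col1a1 was at most 1.4999 FPKM. RNA from whole cultures cannot tell fewer cells of a kind from less RNA per cell.

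Lysosomes degrade material brought in by phagocytosis, endocytosis and autophagy, and macrophages are among the cells richest in them. The hydrolases work at the acidic pH that the V-ATPase sets up, using ATP hydrolysis in V1 to drive protons through V0. TFEB and its relatives TFE3 and MITF bind a DNA element with the core CACGTG (the E-box at the centre of the CLEAR element) near many lysosomal genes. In well-fed cells they are held in the cytosol by mTORC1, a kinase complex that is itself docked on the lysosome by Rag GTPases, on which the folliculin complex acts.

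The upstream sequences of members holding that core are shown first, since the element is the known link between the factors and the hydrolase and pump genes listed here. Promoter windows were taken from RefSeq on GRCm38.p6 and 34 of the 42 members matched one or more by symbol. In the 250 bases before an annotated start, CACGTG was found for 10 of these 34 members (29.4%), against 10.5% of 7886 tested genes with a window and 6.9% of all 27025 genes with one. The core is its own reverse complement, so 1 search covers both strands, and the longer forms searched, GTCACGTG and its reverse complement CACGTGAC, overlap it and were found for 7 members (20.6%), 4.3% of the tested genes and 2.1% of all genes. At least 2 cores were found for 4 members (11.76%), 1.08% of the tested genes and 0.50% of all genes. These members were Lamp1, Atp6v0b, Mcoln1 and Ctsd, and the members with 1 core were Ctsa, Ctsl, Gaa, Glb1, Lgmn and Atp6v1a. A match of letters is a description of the window and does not show binding. Each sequence below is written 5′ to 3′ on the strand of the gene, covers only bases that no GENCODE exon holds, and has each core in capitals. They are shown for the 4 members with several cores, of which those lying inside annotated exons are left out, and for Glb1 and Atp6v1a, a hydrolase and a pump subunit with 1 core each.
Lamp1: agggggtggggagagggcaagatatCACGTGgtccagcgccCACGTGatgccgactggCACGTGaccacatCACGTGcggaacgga
Atp6v0b: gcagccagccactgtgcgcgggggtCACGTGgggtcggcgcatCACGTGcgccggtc
Mcoln1: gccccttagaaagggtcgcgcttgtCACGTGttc
Ctsd: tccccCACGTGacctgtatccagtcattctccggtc
Glb1: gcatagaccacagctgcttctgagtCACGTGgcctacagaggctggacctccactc
Atp6v1a: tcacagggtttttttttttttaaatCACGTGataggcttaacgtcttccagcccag

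The Lamp1 stretch lies at chr8:13159075-13159160 on the plus strand, just before the gene's annotated start, and holds 4 cores that begin 61, 45, 28 and 15 bases before that start. The Atp6v0b stretch (chr4:117887334-117887390, minus strand) holds cores 36 and 18 bases before the start. The Mcoln1 stretch (chr8:3500423-3500456, plus strand) shows 1 of cores at 71 and 45 bases, and the Ctsd stretch (chr7:142388042-142388077, minus strand) shows 1 of cores at 245 and 98 bases before the RefSeq start used. In Glb1 (chr9:114401005-114401060, plus strand) the core is 48 bases and in Atp6v1a (chr16:44139360-44139415, minus strand) 131 bases before the RefSeq start used, which for Atp6v1a lies inside the gene as the deposited table places it.

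LPS against control asks how these genes stood after 3 h of LPS. Tfeb had the largest change of the 42 genes and nearly disappeared from the libraries. Most hydrolase and pump genes were lower as deposited, but so was the median gene of the libraries. Against that gene 10 of the 16 V-ATPase genes were higher and 2 lower, where 34.6% and 32.2% of all tested genes were. Ctsc (cathepsin C, which activates granule serine proteases), Mitf and the V1 subunit Atp6v1e1 were higher as deposited too. The test was limma on log2(FPKM + 1) over the 10962 genes that reached 1 FPKM in 2 or more libraries, with Benjamini-Hochberg adjustment over all of them, calls at an adjusted p under 0.05, and "rose" and "fell" are used only past it. All 42 members passed the filter, Tfeb through its control libraries alone. Of the 42 members, 3 rose, where the background is 17.1% of all genes tested, 36 fell, where it is 68%, and Atp6v1a, Atp6v1g1 and Atp6v1h passed in neither direction.

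The median gene was itself 0.50 lower on the log2 scale in LPS, and the members' median change was −0.40. Each library was therefore also centred on its median tested gene, which gives changes relative to that gene. On this scale 18 members rose (background 34.6%), 6 fell (background 32.2%) and 18 passed in neither direction, with a median of 0.12. The 6 that fell on both scales were Tfeb, Tfe3, Neu1, Gusb, Atp6v0a1 and Atp6v0c. For the other 30 members that fell as deposited, the direction or the call thus depends on the scaling, and their values below are as deposited unless the median gene is named. Quantile normalization, another scaling between libraries, gave 4 members higher and 34 lower, near the counts as deposited.

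**Figure D1:**
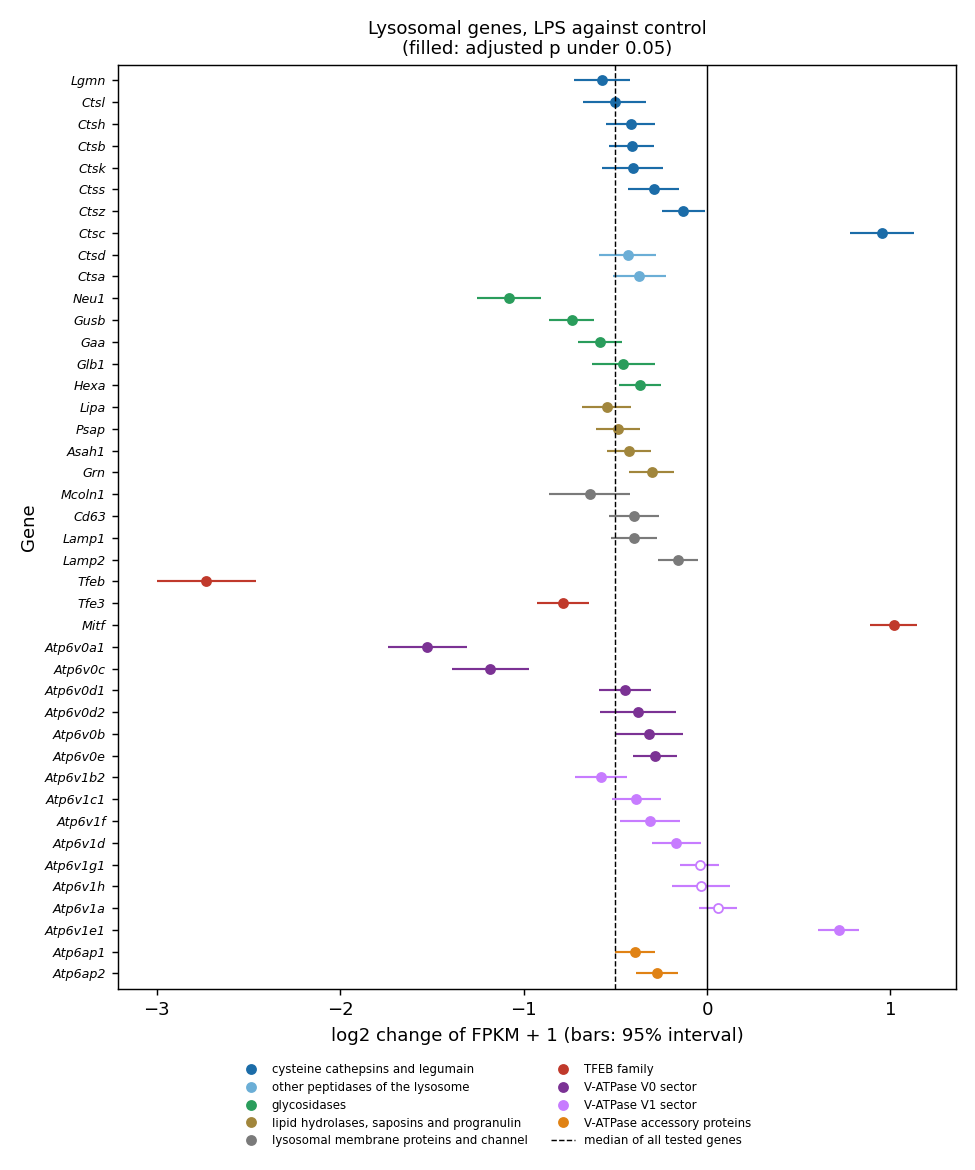
Change of each of the 42 genes between LPS and control (horizontal axis, log2 of FPKM + 1; points are estimates, bars 95% intervals, colours the classes, filled points an adjusted p under 0.05). The dashed line is the median of all tested genes at −0.50, against which 18 members were called higher and 6 lower (34.6% and 32.2% of all tested genes). Tfeb at −2.73 and Atp6v0a1 at −1.52 lie far to its left, and Mitf at 1.02, Ctsc at 0.96 and Atp6v1e1 at 0.72 far to its right.

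Among the transcription factors, Tfeb, the founding regulator of the CLEAR network (GRCm38 chromosome 17, 47737030 to 47792419, plus strand), stood at 8.08 and 7.66 FPKM in the control libraries (B first, then C, here and below), 0.274 and 0.402 with LPS, and 0.498 and 0.248 in Glul_LPS. The control libraries were far above the other 4 without overlap. Lack of overlap alone sets few genes apart here, as LPS and control did not overlap in 92.5% of all tested genes. These values rested on 856 and 753 fragments in control, 25 and 39 in LPS, and 48 and 22 in Glul_LPS. The mean fell from 7.87 ± 0.294 to 0.338 ± 0.0908 FPKM (SD, n = 2 each), 23.3-fold lower as a ratio of means, and the fitted change was −2.73 (SE 0.11, limma adjusted p = 3.35e-06), which the added 1 makes smaller than the ratio. Relative to the median gene the change was −2.21. Tfeb reached 1 FPKM only in the control libraries, so its entry to the test rested on the group where it was high.

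Tfe3, a close relative with overlapping targets (chromosome X, 7762560 to 7775202, plus strand), stood at 22.2 and 24.0 FPKM in control, 12.7 and 13.3 in LPS, and 13.6 and 13.3 in Glul_LPS. It fell by 0.78 (SE 0.06, limma adjusted p = 3.55e-05) and by 0.27 relative to the median gene. Mitf, best known in melanocytes and osteoclasts (chromosome 6, 97807052 to 98021349, plus strand), moved the other way, from 11.2 and 10.6 FPKM in control to 23.4 and 22.8 in LPS and 20.4 and 20.7 in Glul_LPS. Its rise was 1.02 (SE 0.05, limma adjusted p = 8.69e-06), or 1.54 relative to the median gene. Mitf made up 27.05% and 25.05% of the summed FPKM of the 3 factors in the control libraries and 64.3% and 62.5% in the LPS libraries, and Tfeb 19.4% and 18.2% against 0.753% and 1.103%. These shares are taken within a library and do not depend on the scaling between libraries. The summed FPKM itself went from 41.5 and 42.2 to 36.4 and 36.5.

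Tfec, the fourth gene of that family, which is largely restricted to macrophages, is not a member, and was given a place among the genes always named. It stood at 6.28 and 6.27 FPKM in control, 22.2 in both LPS libraries, and 23.8 and 24.3 in Glul_LPS, a rise of 1.67 (SE 0.05, limma adjusted p = 9.28e-07). The list of TFEB regulation at the lysosome, to which it belongs, had 21 tested genes. Of these 2 rose (background 17.1%), 15 fell (background 68%) and 4 passed in neither direction. Against the median gene 7 rose (background 34.6%) and 7 fell (background 32.2%). Flcn (folliculin), whose complex acts on RagC and RagD and thereby sends TFEB to mTORC1, stood at 16.8 and 15.4 FPKM in control and 1.64 and 1.79 in LPS, a change of −2.66 (SE 0.08, limma adjusted p = 9.95e-07). Its partners Fnip1 and Fnip2 fell by 1.45 and 1.49. These genes of the folliculin complex fell relative to the median gene as well, by 2.14, 0.93 and 0.98.

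**Figure D2:**
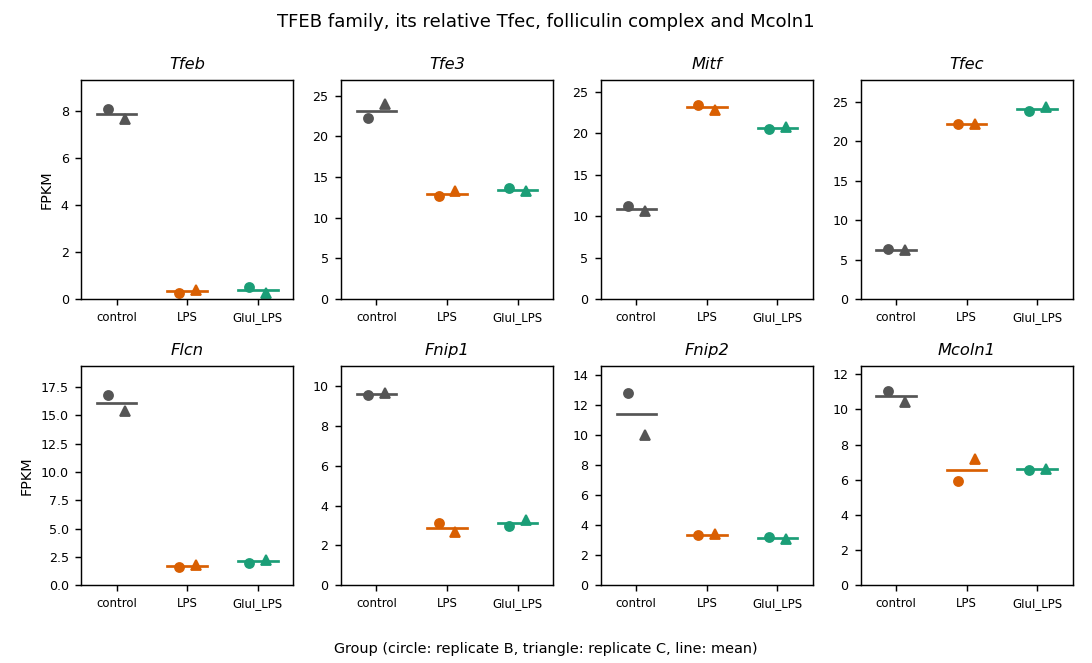
FPKM (vertical axes, linear from 0) in each library of the 3 groups for the TFEB family, its relative Tfec, the folliculin complex and the channel gene Mcoln1; circles are replicate B, triangles replicate C, lines group means. Tfeb and Flcn lie near 0 in all 4 libraries with LPS, while Mitf and Tfec lie above control in the same libraries.

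The members were also split by the core in their upstream 250 bases. Of the 10 with a core, 0 rose (background 17.1%) and 9 fell (background 68%), with a median change of −0.44 (range −0.64 to 0.06). Of the 24 matched members without one, 3 rose and 21 fell, with a median of −0.38. Relative to the median gene both medians were above 0, at 0.074 with a core and 0.139 without. Lamp1 changed by −0.40, Atp6v0b by −0.31, Ctsd by −0.43, Glb1 by −0.46, Atp6v1a by 0.06 and Mcoln1 by −0.64, the lowest among the 10.

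Of the cysteine cathepsins and legumain, 1 of 8 rose (background 17.1%) and 7 fell (background 68%), with a median change of −0.41. Against the median gene 3 rose (background 34.6%) and 0 fell (background 32.2%). Cathepsin S (Ctss), which trims the invariant chain of MHC class II, was the most abundant cathepsin by FPKM, at 7283 and 7176 in control, 5836 and 5989 in LPS, and 5484 and 5101 in Glul_LPS. The 3 groups did not overlap for it, where the background is 92.5% for LPS against control and 47% for Glul_LPS against LPS. Its change with LPS was −0.29 (SE 0.06, limma adjusted p = 0.00296), and it lost its call with no filter on low genes (adjusted p = 0.183). Relative to the median gene it rose by 0.23 (limma adjusted p = 0.00675). After quantile normalization the change was 0.05 and did not pass. Cathepsin B (Ctsb), an abundant endo- and exopeptidase, stood at 2783 and 2830 FPKM in control, 2054 and 2169 in LPS, and 2315 and 2244 in Glul_LPS, a change of −0.41.

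Ctsc (chromosome 7, 88278085 to 88310888, plus strand) was the exception. It stood at 117 and 110 FPKM in control, 221 in both LPS libraries, and 213 and 244 in Glul_LPS, so that both groups with LPS lay above control. It rose by 0.96 (SE 0.07, limma adjusted p = 3.59e-05), or 1.47 relative to the median gene, and its share of the summed cathepsin FPKM went from 0.855% and 0.818% to 2.06% and 1.98%. Ctss held 53.2% and 53.3% of that sum in control and 54.4% and 53.7% in LPS, and Ctsb 20.3% and 21.03% against 19.1% and 19.4%. The sum over all 9 cathepsins was 13689 and 13459 FPKM in control and 10726 and 11153 in LPS.

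Among the others, Ctsl (cathepsin L, a broad endopeptidase) fell by 0.50, from 197 and 193 to 135 and 140 FPKM. Ctsh (cathepsin H, an aminopeptidase) fell by 0.42 from 111 ± 4.27 FPKM (SD, n = 2), and Ctsk (cathepsin K, the collagenase of osteoclasts) by 0.41 from 43.4 ± 0.183 FPKM. Lgmn (legumain, which cleaves after asparagine and matures cathepsins) fell by 0.57, from 728 and 759 to 473 and 529 FPKM. Ctsz (cathepsin Z, a carboxypeptidase) changed by −0.13 only, from 894 and 847 to 787 and 804 FPKM (limma adjusted p = 0.0408). That call was lost in several alternatives, among them TPM (limma adjusted p = 0.0585). It was also lost without control replicate B, LPS replicate B or LPS replicate C (changes of −0.09, −0.11 and −0.15). Relative to the median gene Ctsz rose by 0.39 (limma adjusted p = 0.000334). The aspartic peptidase Ctsd fell by 0.43, from 1833 ± 76.4 to 1359 ± 78.5 FPKM, and Ctsa, a carboxypeptidase that also protects Glb1 and Neu1, by 0.37. Relative to the median gene Ctsa rose by 0.15 and Ctsd passed in neither direction. Exons of other genes cover 34.4% of the exon bases of Ctsd, 26.8% of Ctsl and 17.4% of Ctsa, and how the authors counted fragments there is not given, so these 3 levels are uncertain. The same holds for Ctsb and Hexa (12.8% each), Atp6v0b (11.8%), Lamp1 (9.3%) and Glb1 (5.5%).

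All 5 glycosidases fell (background 68%), with a median change of −0.59. Against the median gene 1 rose (background 34.6%) and 2 fell (background 32.2%). Neu1, the lysosomal sialidase (chromosome 17, 34931253 to 34935953, plus strand), stood at 27.6 and 24.1 FPKM in control, 11.7 in both LPS libraries, and 12.7 in both Glul_LPS libraries. It fell by 1.08 (SE 0.07, limma adjusted p = 2.24e-05), the largest change among the member hydrolases, and by 0.56 relative to the median gene. Gusb, the beta-glucuronidase, stood at 181 and 177 FPKM in control and 103 and 111 in LPS, and fell by 0.74 and, relative to the median gene, by 0.22. Gaa, which breaks down glycogen, fell by 0.59 from 33.6 ± 0.316 FPKM, and Glb1, the beta-galactosidase, by 0.46 from 43.6 ± 0.597 FPKM. Hexa, the alpha subunit of beta-hexosaminidase, was the least changed at −0.36, from 599 ± 5.19 to 465 ± 3.40 FPKM, and rose by 0.15 relative to the median gene.

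Psap, the precursor of the saposins that help sphingolipid hydrolases, was one of the most abundant members, at 6766 and 6725 FPKM in control, 4735 and 4902 in LPS, and 5396 and 5429 in Glul_LPS. It fell by 0.49 (SE 0.05, limma adjusted p = 0.000132). Its 3 groups did not overlap, with the same backgrounds of 92.5% for LPS against control and 47% for Glul_LPS against LPS. Lipa, the acid lipase of cholesteryl esters and triglycerides, fell by 0.55, from 441 and 470 to 311 FPKM in both LPS libraries. Asah1, the acid ceramidase, fell by 0.43 and Grn, progranulin, which affects lysosomal function and inflammation, by 0.30. Relative to the median gene Grn rose by 0.22 and the other 3 passed in neither direction.

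**Figure D3:**
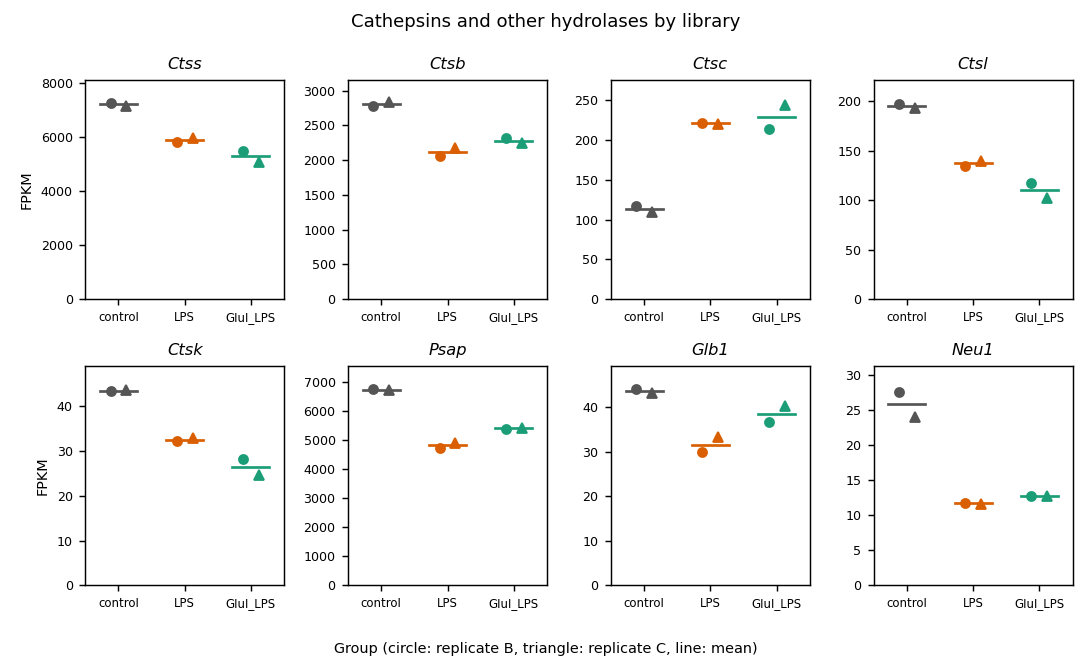
FPKM (vertical axes, linear from 0) in each library for 5 cathepsins, the saposin precursor Psap and the glycosidases Glb1 and Neu1; circles are replicate B, triangles replicate C, lines group means. Ctsc lies above control in all 4 libraries with LPS and Neu1 far below, and Ctsl and Ctsk have their lowest values in the Glul_LPS libraries, where the difference from LPS did not pass the threshold.

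The 4 membrane genes fell (background 68%), by a median of 0.40. Against the median gene 1 rose (background 34.6%) and 0 fell (background 32.2%). Lamp1, a major glycoprotein of the limiting membrane, stood at 1015 and 1016 FPKM in control, 776 and 764 in LPS, and 886 and 824 in Glul_LPS, a change of −0.40 (SE 0.05, limma adjusted p = 0.00038). Its sister gene Lamp2, also needed for chaperone-mediated autophagy, changed less, from 88.9 and 92.6 to 81.8 and 80.6 FPKM (−0.16, adjusted p = 0.0154), and rose by 0.36 relative to the median gene. The call of Lamp2 was lost without control replicate C (adjusted p = 0.083) and without LPS replicate C (0.0619). Cd63, a tetraspanin of late endosomes and exosomes, fell by 0.40, and 11.1% of its 50-base stretches lie in other transcripts, among them a pseudogene. Mcoln1, the calcium channel whose release of calcium activates TFEB through calcineurin, stood at 11.1 and 10.4 FPKM in control and 5.91 and 7.20 in LPS and fell by 0.64 (SE 0.09, limma adjusted p = 0.000621), a call lost after centring (−0.12, adjusted p = 0.256) and after quantile normalization (−0.21, adjusted p = 0.0629). Mcoln2, a related channel outside the 42, went the other way, from 18.6 and 14.5 to 46.7 and 45.6 FPKM, a rise of 1.44.

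All 6 V0 genes fell (background 68%), with a median change of −0.41, where the median of all tested genes was −0.50. Relative to the median gene 2 rose (background 34.6%) and 2 fell (background 32.2%). Atp6v0a1, one of the alternative a subunits that place the pump in a compartment and form its proton path (chromosome 11, 101009452 to 101063719, plus strand), stood at 46.0 and 48.1 FPKM in control, 14.2 and 17.3 in LPS, and 16.4 and 16.3 in Glul_LPS. It fell by 1.52 (SE 0.09, limma adjusted p = 1.31e-05), second to Tfeb among the 42, and by 1.01 relative to the median gene. Tcirg1, which encodes the a3 subunit known from osteoclasts and macrophages and is not among the 42, stood at 133 and 131 FPKM in control, 189 and 199 in LPS, and 193 and 200.6 in Glul_LPS. It rose by 0.55 (SE 0.05, limma adjusted p = 7.13e-05). Thus the more abundant a subunit by FPKM was higher with LPS and Atp6v0a1 was lower. LPS and control overlapped in neither gene, where the background without overlap is 92.5%. Atp6v0a2, another a subunit, was scarcer and fell by 0.57 from 8.81 ± 0.254 FPKM (SD, n = 2), a call lost after centring and after quantile normalization.

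Atp6v0c, the gene of the proteolipid c that makes up most of the rotating ring, fell by 1.18 (SE 0.09, limma adjusted p = 3.3e-05), from 13.5 and 13.0 to 5.69 and 4.92 FPKM, and by 0.66 relative to the median gene. Pseudogenes share 10.8% of its 50-base stretches, so its level is uncertain. Atp6v0b, the other ring subunit (c″), fell by 0.31, from 72.5 and 66.9 to 52.9 and 58.9 FPKM. The d subunit, which joins the ring to the stalk, has a ubiquitous form, Atp6v0d1, and one known from osteoclasts and macrophages, Atp6v0d2. Atp6v0d1 stood at 84.5 and 83.2 FPKM in control, 58.3 and 64.3 in LPS, and 72.3 and 69.6 in Glul_LPS, and fell by 0.45. Atp6v0d2 stood at 127 and 144 FPKM in control, 105 and 103 in LPS, and 91.8 and 79.5 in Glul_LPS, and fell by 0.38. Atp6v0e fell by 0.28.

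Of the V1 genes 1 of 8 rose (background 17.1%), 4 fell (background 68%) and 3 passed in neither direction. Their median change of −0.10 was the nearest to 0 among the classes. Relative to the median gene 6 rose (background 34.6%) and 0 fell (background 32.2%). Atp6v1e1, of the peripheral stalk (chromosome 6, 120794305 to 120822793, minus strand), stood at 39.5 and 38.4 FPKM in control, 66.0 and 63.4 in LPS, and 60.99 and 61.2 in Glul_LPS. It rose by 0.72 (SE 0.05, limma adjusted p = 1.91e-05), or 1.24 relative to the median gene, and its share of the summed V1 FPKM went from 7.22% and 6.98% to 13.2% and 12.4%. The catalytic subunit A gene, Atp6v1a, stood at 86.2 and 87.5 FPKM in control and 91.6 and 89.5 in LPS, a change of 0.06 with a 95% interval of −0.05 to 0.16. It was called higher relative to the median gene (0.58) and lower after quantile normalization (−0.16, limma adjusted p = 0.0174), so its direction depends on the scaling. For Atp6v1h the change was −0.03 (interval −0.19 to 0.13) and for Atp6v1g1 −0.04 (interval −0.15 to 0.07). Atp6v1h was called higher relative to the median gene (0.49) and after quantile normalization (0.39). Atp6v1g1 was called higher relative to the median gene (0.48) and lower after quantile normalization (−0.22, limma adjusted p = 0.00366), and 19.2% of its 50-base stretches lie in other transcripts, so its level and direction are uncertain. Atp6v1b2, the B subunit that pairs with A in the catalytic head, fell by 0.58, from 93.7 and 90.0 to 60.8 and 61.4 FPKM. The ratio of Atp6v1e1 to Atp6v1a within a library went from 0.458 and 0.439 to 0.721 and 0.708.

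Atp6v1c1, the clamp of the stalk, fell by 0.39, Atp6v1f of the central rotor (11.2% of its stretches shared with another transcript) by 0.31 and Atp6v1d, also of the rotor, by 0.17 (limma adjusted p = 0.0255), a call lost without control replicate C (adjusted p = 0.143), without LPS replicate B (0.0918), without LPS replicate C (0.0583) and after quantile normalization (0.993). The accessory genes Atp6ap1, an assembly factor, and Atp6ap2, the prorenin receptor, fell by 0.39 and 0.27. The summed V1 FPKM was 547 and 551 in control and 501 and 509 in LPS, and the summed V0 FPKM 393 and 406 against 277 and 290.

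**Figure D4:**
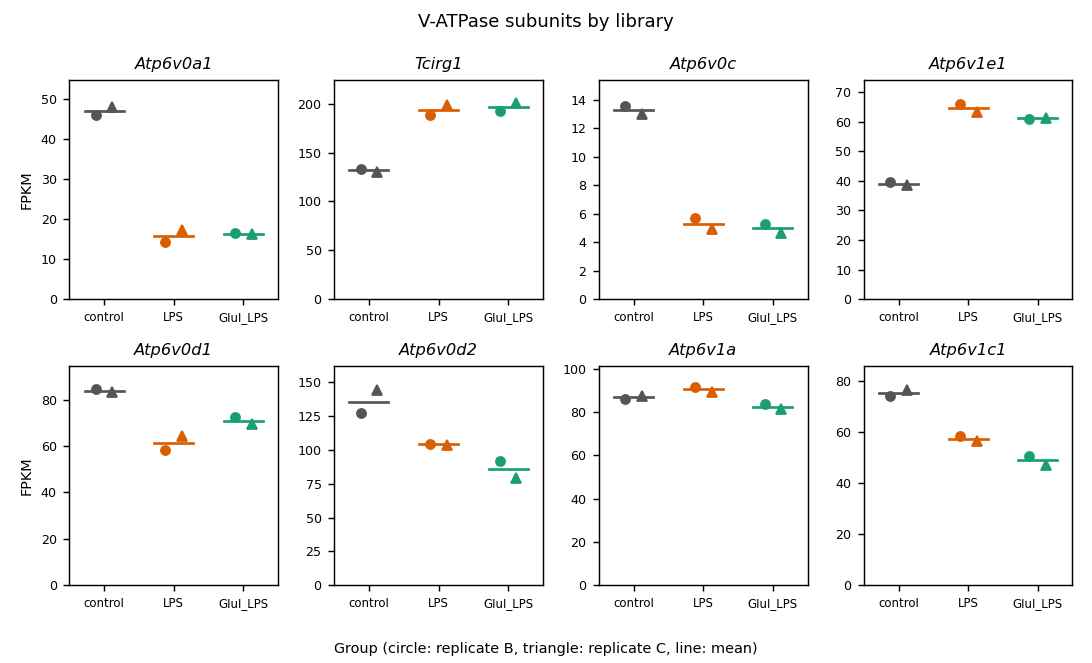
FPKM (vertical axes, linear from 0) in each library for 7 V-ATPase members and the a3 subunit gene Tcirg1; circles are replicate B, triangles replicate C, lines group means. The a subunit genes Atp6v0a1 and Tcirg1 move apart with LPS, Atp6v1e1 rises and Atp6v1a stays between 81.5 and 91.6 FPKM in all 6 libraries.

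Together the 42 genes made up 7.30% and 7.29% of all FPKM in control, 5.72% and 5.62% in LPS, and 5.83% and 5.56% in Glul_LPS. The 2 control libraries lay above the other 4.

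Further genes of the lysosomal pathway were taken from 9 lists of 104 genes, of which 101 were in the table and 94 were tested. Of these 94, 10 rose (background 17.1%) and 72 fell (background 68%), with a median change of −0.48. Against the median gene 35 rose and 30 fell, close to the shares of all tested genes (34.6% and 32.2%). All 8 tested genes among the other peptidases fell, led by Prcp (−0.82), a carboxypeptidase. Of 17 other glycosidases and sulfatases 16 fell, and Sgsh, a sulfamidase of heparan sulfate breakdown, stood at 9.16 and 9.45 FPKM in control and 2.096 and 2.27 in LPS, a change of −1.70. Manba, a beta-mannosidase, changed by −0.94, Fuca1, a fucosidase, by −0.84 and Arsa, an arylsulfatase, by −0.81.

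Of 10 genes of lipid handling 9 fell (background 68%). Among them were the lysosomal phospholipase gene Pla2g15 (−1.48, from 61.03 and 62.5 to 21.02 and 21.8 FPKM), Galc (galactosylceramidase, −1.19) and Smpd1 (acid sphingomyelinase, −1.07). Of 18 other membrane proteins and transporters 4 rose (background 17.1%) and 11 fell (background 68%). Ctns, the cystine exporter, changed by −1.90, from 11.0 and 9.75 to 1.87 and 2.22 FPKM, and Slc17a5, the sialic acid exporter, by −1.34. Of 6 genes of mannose-6-phosphate sorting, which carries hydrolases to the lysosome, 0 rose and 4 fell, led by Sort1 (−1.06). Of 7 phosphatases and nucleases 2 rose and 4 fell, and Acp5, the tartrate-resistant acid phosphatase known from osteoclasts and activated macrophages, went from 17.3 and 14.5 to 41.7 and 37.9 FPKM (a rise of 1.28). The osteoclast marker Nfatc1 went from 8.65 and 8.72 to 3.32 and 3.24 FPKM in the same libraries, and Dcstamp from 3.22 and 3.30 to 1.59 and 1.76. Itgb3, also an osteoclast marker, went from 2.86 and 3.23 to 1.41 and 1.39 FPKM, while Mmp9 overlapped between LPS and control. The part of these markers in the result was not tested.

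Of 4 tested cathepsin inhibitors, 1 rose (background 17.1%) and 3 fell (background 68%). Cst7, the cystatin F that acts on cathepsin C inside the cell, rose by 2.17 (SE 0.08, limma adjusted p = 2.27e-06), from 12.2 and 13.0 to 59.1 and 61.8 FPKM, and stood at 41.2 and 47.8 in Glul_LPS. It thus rose together with Ctsc, its known target, in the same libraries. The other 3 fell, among them Cst3, the secreted cystatin C, from 802 and 867 to 636 and 666 FPKM (−0.36). Against the median gene 3 of the 4 rose (background 34.6%) and 1 fell (background 32.2%). Cst3 (0.16) and Cstb (0.26) were among those higher on that scale, so their direction depends on the scaling. In the list of other V-ATPase subunits 3 of 10 genes were tested, Tcirg1 and Atp6v0a2 (above) and Atp6v1g2, which fell by 1.33 from 5.43 ± 0.242 FPKM (SD, n = 2).

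Glul_LPS against LPS asks what the Glul label adds in cells given LPS, and it shares the LPS libraries with the comparison above. By limma, 0 of the 42 members passed the threshold in either direction, as deposited or relative to the median gene, where the background was 0.547% higher and 0.556% lower as deposited, and 0.483% higher and 0.73% lower relative to the median gene. The smallest adjusted p was 0.0954, for Ctsl. At an unadjusted p under 0.05 there were 4 members higher, against 10.4% of all genes, and 8 lower, against 7.09%. The 95% intervals of the members reached 0.105 to 0.271 on the log2 scale to either side of their estimates, which is the precision that 2 libraries per group gave.

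The 4 higher members were Glb1, Psap, Lamp1 and Atp6v0d1. Glb1 stood at 29.9 and 33.3 FPKM in LPS and 36.7 and 40.2 in Glul_LPS, a difference of 0.28 (interval 0.10 to 0.45, adjusted p = 0.133 by limma). Differences were 0.17 for Psap, 0.15 for Lamp1 and 0.21 for Atp6v0d1. The 8 lower members were Ctsl (−0.32), Ctsk (−0.30), Atp6v0d2 (−0.28), Atp6v1c1 (−0.23), Ctsh (−0.16), Ctss (−0.16), Mitf (−0.16) and Atp6v1a (−0.13). Ctsl stood at 135 and 140 FPKM in LPS and 118 and 102 in Glul_LPS, and Ctsk at 32.2 and 32.8 against 28.1 and 24.6. The libraries of the groups did not overlap in any of these 12 genes, which adds no support, since they were picked by p-value in the same libraries. In all, 26 of the 42 members did not overlap, where the background is 47%.

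Of the 8 cysteine cathepsins and legumain, 4 lay below 0 and 4 above, with 0 past the threshold, so that the list had no common direction. Within a library, the ratio of Atp6v0d2 to Atp6v0d1 was 1.505 and 1.73 in control, 1.796 and 1.605 in LPS, and 1.27 and 1.14 in Glul_LPS, which lay below the other 4 libraries. The ratio of Psap to Ctss, which are not paralogues, was 0.929 and 0.937 in control, 0.811 and 0.819 in LPS, and 0.984 and 1.06 in Glul_LPS. Both ratios set a gene picked above as higher against a gene picked as lower in the same libraries. Their separation of Glul_LPS from LPS follows from that choice and adds no support. The dendritic cell marker Itgax, which macrophages also express, stood at 42.3 and 37.9 FPKM in control, 37.5 and 34.7 in LPS, and 21.9 and 17.0 in Glul_LPS, and its part in these differences was not tested. The other dendritic cell markers Flt3, Zbtb46 and Ccr7 were at most 0.503 FPKM, Clec9a at most 0.596 and Xcr1 at most 1.3001.

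With limma voom on fragments recovered from FPKM, an alternative added after the data were seen, 39 of the 42 members could be tested. Glb1 (adjusted p = 0.0254) and Psap (0.0157) passed as higher, 2 members where the background is 2.91%. Ctsk (0.0336), Ctsl (0.00399), Ctss (0.0447) and Atp6v0d2 (0.032) passed as lower, 4 members where the background is 2.81%. Ctsl also passed with only genes of at least 5 FPKM on average in the fit (adjusted p = 0.0482). The sizes were nearly those given above, such as −0.32 for Ctsl and 0.28 for Glb1.

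**Figure D5:**
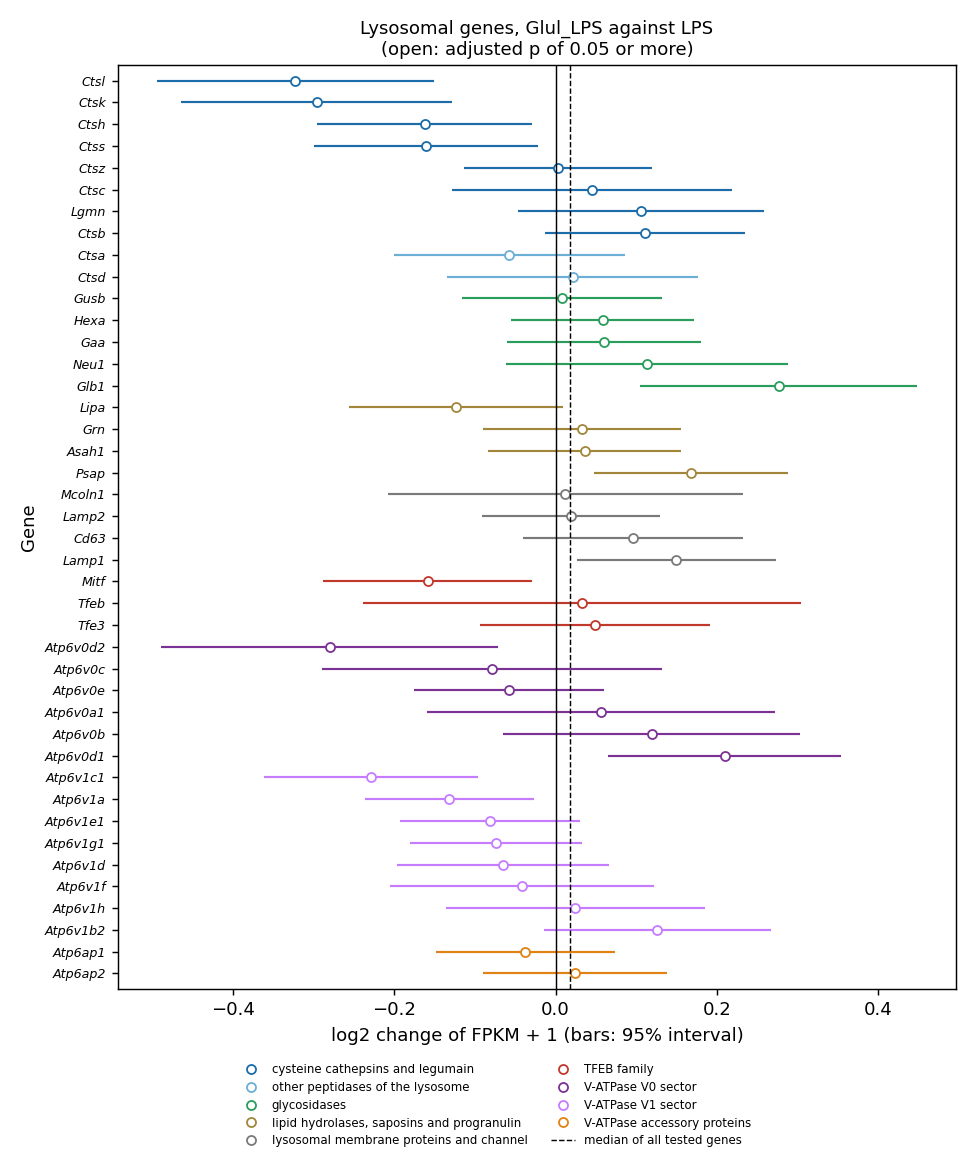
Difference of each of the 42 genes between Glul_LPS and LPS (horizontal axis, log2 of FPKM + 1; points are estimates, bars 95% intervals, colours the classes, open points an adjusted p of 0.05 or more). No point is filled, the estimates span −0.32 (Ctsl) to 0.28 (Glb1), and the dashed line at 0.02 is the median of all tested genes.

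In the other lysosomal lists, 1 of 94 tested genes passed as higher in this comparison (background 0.547%) and 0 passed as lower (background 0.556%). Such a count does not set these lists apart from all tested genes. Hgsnat, which acetylates heparan sulfate inside the lysosome, stood at 31.7 and 32.8 FPKM in control, 17.5 and 18.8 in LPS, and 26.0 and 30.1 in Glul_LPS, a rise of 0.60 over LPS (SE 0.08, limma adjusted p = 0.0323). The call was lost with any library left out other than Glul_LPS replicate B, with adjusted p between 0.0848 and 0.176, and also with no filter (0.146), with only the 2 groups compared (0.0875) and with no trend (0.064). Tfec differed by 0.11, Tcirg1 by 0.02 and Cst3 by −0.08, none past the threshold, and Acp5, at 48.8 and 52.4 FPKM, by 0.34 (adjusted p = 0.152 by limma, and 0.0135 by voom).

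Glul_LPS against control shares its control libraries with the first comparison and its Glul_LPS libraries with the second. Of the 42 members 3 rose, where the background is 16.9%, and 36 fell, where it is 67.4%. Relative to the median gene 20 rose (background 34.2%) and 9 fell (background 31.7%). The 3 that rose were again Ctsc (1.00), Mitf (0.86) and Atp6v1e1 (0.64), and Tfeb (−2.70), Atp6v0a1 (−1.47) and Atp6v0c (−1.26) fell most. Ctsl changed by −0.83 here and by −0.50 in LPS against control, Ctsk by −0.70 and −0.41, Lipa by −0.67 and −0.55, and Glb1 by −0.18 (not past the threshold, limma adjusted p = 0.0515) and −0.46. Relative to the median gene Ctsl, Ctsk and Lipa fell in this comparison, where they had passed in neither direction in LPS against control. The difference between those values is Glul_LPS against LPS itself, in which none of the 3 passed.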

How the data were processed

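The authors deposited 1 table with FPKM per gene. Tools named in the submitters' processing notes are HISAT2 2.1.0, HTSeq 0.6.0, CASAVA and DESeq2, with the build GRCm38. The order of steps, annotation and strandedness were not given in the sources used here, and 6 other value columns match no sample and were not used. Limma 3.58.1 (R 4.3.3) was fitted to log2(FPKM + 1) over all 6 libraries, with a mean-variance trend and 6.27 total degrees of freedom. The 10962 genes tested had 1 FPKM or more in 2 or more libraries. All tests were two-sided, and the added 1 shrinks the fold of genes with low values.

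Fragments were recovered as FPKM times exon length (GENCODE M21) times library total, whole within 0.01 of a fragment in all libraries for 22655 genes and 39 of 42 members (not Lipa, Atp6v1c1 and Atp6v0e). The fit was tested on simulated data. The members and lists were chosen with earlier results of these data known. The text names all members and, per pathway list and comparison, up to 4 called genes with the largest change, plus Tcirg1, Acp5, Tfec and Cst3. Some genes of the rule and the marker lists are not reported here. Alternatives covered pseudocounts, filters, scalings, samples in the fit, the replicate letter, the variance model and each library left out.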

Additional observations from a re-analysis of the deposited data

How the results depend on the processing

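For LPS against control the 3 members that rose did so under every alternative run, and 33 to 36 fell under all but median centring, which gave 18 higher and 6 lower. With genes of at least 5 FPKM on average, 5055 genes passed in LPS against control and 4977 in Glul_LPS against control, since fewer genes were tested, and centring gave 20 members higher and 9 lower in Glul_LPS against control. For Glul_LPS against LPS, genes past the threshold numbered 121, against 9 with no filter, 264 with a mean of at least 5 FPKM, 59 with only the 2 groups compared, 42 with no trend, 548 by voom (run on fragments recovered from the table, an alternative chosen after seeing the data), and 1 to 57 with a library left out. Members past it were 0 except by voom (2 higher, 4 lower) and with a mean of at least 5 FPKM (1 lower). The cause was not tested.

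After median centring, the LPS against control changes that turned positive were Ctsb 0.11, Ctsh 0.10, Ctsk 0.11, Ctsl 0.016, Ctss 0.23, Ctsz 0.39, Ctsa 0.15, Ctsd 0.086, Hexa 0.15, Glb1 0.063, Asah1 0.092, Psap 0.033, Grn 0.22, Lamp1 0.12, Lamp2 0.36, Cd63 0.12, Atp6v0b 0.20, Atp6v0d1 0.071, Atp6v0d2 0.14, Atp6v0e 0.24, Atp6v1c1 0.13, Atp6v1d 0.35, Atp6v1f 0.21, Atp6v1g1 0.48, Atp6v1h 0.49, Atp6ap1 0.13, Atp6ap2 0.24, Cst3 0.16, Cstb 0.26, Gnptg 0.11, Igf2r 0.29, Ctse 0.029 and Tpp1 0.049. On that scale a gene that fell less than the library medians did has a positive change. Quantile normalization turned Ctss (0.050), Psap (0), Atp6v1a (−0.16), Atp6v1h (0.39) and Ctse (0.048). Of these, Atp6v1a and Atp6v1h passed the threshold on that scale. Leaving out a library moved Atp6v1h between −0.096 and 0.031.

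For Glul_LPS against LPS, differences near 0 changed sign in TPM (Ctsz −0.0078, Gusb −0.0026), after centring (Ctsz −0.027, Ctsd −0.0087, Gusb −0.021, Lamp2 −0.011, Mcoln1 −0.018, Atp6v1h −0.0051, Atp6ap2 −0.0055, Tcirg1 −0.0078) and after quantile normalization (Ctsz −0.037, Grn −0.036, Mcoln1 −0.014). With a library left out the ranges that crossed 0 were Ctsc −0.051 to 0.14, Ctsz −0.013 to 0.019, Ctsd −0.038 to 0.080, Gusb −0.045 to 0.061, Asah1 −0.0097 to 0.083, Grn −0.013 to 0.080, Lamp2 −0.00052 to 0.038, Mcoln1 −0.11 to 0.14, Tfeb −0.099 to 0.16, Atp6v0a1 −0.075 to 0.19, Atp6v0c −0.17 to 0.0089, Atp6v1f −0.12 to 0.036, Atp6v1h −0.039 to 0.088 and Tcirg1 −0.016 to 0.060.

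Deviations of libraries with the same letter correlated at −0.0215, −0.000429 and −0.0474, so no shared effect of the letter was seen. What the letters stand for is not given in the labels, and these correlations cannot show whether the libraries were paired by design. With the letter as a replicate block, 9293 genes passed in LPS against control, 87 in Glul_LPS against LPS and 9203 in Glul_LPS against control, and members were 3 higher and 35 lower, 0 and 0, and 3 higher and 34 lower. Computed from fragments, not per length, Ctss held 26.8% of cathepsin fragments in control and Ctsb 46.4%, so that their order turned. Depth limits Tfeb most, which rested on 22 to 48 fragments in the libraries with LPS.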
